A study of Rattus norvegicus with 12 samples.

Results

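Circulating microRNAs (miRs) were compared between rapamycin and vehicle at day 21 after tendon injury, in 6 of the 12 serum libraries of the study. The 6 libraries were chosen by their labels: rapamycin at day 21 (3 animals) and vehicle at day 21 (3 animals). Female Wistar rats of 12 weeks received a needle injury to the left Achilles tendon. Treated rats were injected intraperitoneally each day with rapamycin (2 mg per kg, 19 injections before the day 21 sampling), and controls with a matched volume of the vehicle, polyethylene glycol with Tween 80. Rapamycin was first dissolved in dimethyl sulfoxide, which the study does not list in the vehicle. Effects of the drug and of this solvent therefore cannot be told apart. Extracellular vesicles (EVs) were taken from serum by size exclusion, and their small RNA was sequenced. Size exclusion alone may leave protein and lipoprotein particles of similar size in the vesicle fraction. The labels give tendon as the tissue, but the sequenced material was serum EV RNA, so no tendon cell was measured. All 6 rats were injured, and a library without injury was not analysed here.

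Rapamycin inhibits mTOR complex 1, a kinase complex that drives protein synthesis and cell growth and restrains autophagy. A miR is a short RNA that guides Argonaute proteins to messenger RNAs, mostly by pairing of its bases 2 to 8, the seed, with the target. MiRs with the same seed form a family with overlapping targets, and miRs whose precursors lie next to each other in the genome are often transcribed together. In blood, miRs are carried by vesicles, proteins and lipoproteins, and red cells, platelets, leukocytes, endothelium and liver are known sources.

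The mature sequences of the miRs on which the comparison turns are given 5′ to 3′ from RefSeq (rat build GRCr8), with the seed in capitals. The let-7 family is shown because it held the only differentially expressed (DE) miR, and its members differ at few positions outside a common seed:
let-7c-5p: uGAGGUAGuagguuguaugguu
let-7a-5p: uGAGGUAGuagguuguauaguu
let-7b-5p: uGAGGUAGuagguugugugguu
let-7f-5p: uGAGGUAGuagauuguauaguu
let-7g-5p: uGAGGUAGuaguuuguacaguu
let-7i-5p: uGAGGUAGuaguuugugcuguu

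The next miRs are shown as neighbours of let-7c, as the miRs with the smallest p-values, or as markers of a tissue in blood:
miR-125b-5p: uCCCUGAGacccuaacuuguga
miR-128-3p: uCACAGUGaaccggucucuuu
miR-191a-5p: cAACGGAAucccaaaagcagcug
miR-25-3p: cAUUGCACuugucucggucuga
miR-122-5p: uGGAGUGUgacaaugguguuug
miR-133a-3p: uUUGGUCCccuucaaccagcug

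Of the 426 miRs in the table, 385 had a mature sequence in the reference, as did 93 of the 105 miRs with a mean count of at least 10 over the 6 libraries. Those without one, among them miR-486, miR-150-5p and miR-99a-5p, are named only.

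The 3 rapamycin libraries held 16327, 22736 and 23822 miR counts and the 3 vehicle libraries 32126, 28697 and 25032, in the order of replicates 1, 2 and 3 that is used throughout. Each rapamycin total lay below each vehicle total, and the log2 difference between the group means was -0.46 (p = 0.1 in a two-sided exact permutation test, the smallest p that 3 against 3 allows, adjusted p = 0.5 over 5 library measures). Counts of miR per count of the 7 calibrator spike-ins, synthetic RNAs added to each sample, stood at 0.686, 1.10 and 0.973 with rapamycin and 1.51, 1.26 and 0.955 with vehicle (log2 difference -0.43, exact permutation test p = 0.3). Between 189 and 229 miRs were detected per rapamycin library, and between 217 and 230 per vehicle library. After TMM scaling, a miR with 3 counts stood at 98.8 to 183 CPM (counts scaled to a fixed library total) over the 6 libraries. Levels below the value of a library rest on 1 or 2 counts. The libraries come from separate animals. The study's methods name no molecular identifiers, and the limit of 3 counts allows for counting error and nothing else.

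Rapamycin replicate 2 stood apart from the other 5 libraries. Over the 105 miRs with a mean count of at least 10, its mean correlation with the other libraries was 0.843, against 0.881 to 0.921 for the others. It correlated with rapamycin replicate 3 at 0.778 and with vehicle replicate 3 at 0.916, whereas the vehicle libraries correlated among themselves at 0.912 to 0.952. These correlations are across miRs of the same libraries and are given as a description. Rapamycin replicate 2 held the highest value of 26 miRs and the lowest of 28. Rapamycin replicate 1 held the highest of 14 and the lowest of 23, and rapamycin replicate 3 the highest of 23 and the lowest of 19. Each vehicle library held the highest of 11 to 16 and the lowest of 7 to 15. The SD of log2 CPM within a group was larger with rapamycin than with vehicle for 76 of the 105 miRs, with a median SD of 0.55 against 0.35. Results that rest on 1 library are therefore given with and without it.

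The most abundant miRs were nearly the same in every library. MiR-191a-5p, a miR found in platelets and many blood cells, was first in all 6, with 11.5%, 14.4% and 13.3% of the miR counts with rapamycin and 18.9%, 16.4% and 14.8% with vehicle. By share, each rapamycin library lay below each vehicle library. In CPM after TMM scaling the groups overlapped, since rapamycin replicate 3 lay above vehicle replicate 3, and the log2 fold change was -0.37 (SE 0.23, edgeR quasi-likelihood test, adjusted p = 0.696). MiR-21-5p, which is induced in fibrosis and inflammation, took 4.53% to 8.03% of counts with rapamycin and 7.98% to 8.77% with vehicle. The erythrocyte miR-451-5p took 5.99% to 8.11% with rapamycin and 3.24% to 6.27% with vehicle. MiR-92a-3p, from the miR-17/92 cluster, took 5.48% to 7.27% over the 6 libraries. Of the 10 most abundant miRs of each library, 7 were in the first 10 of all 6 libraries and 12 in the first 10 of any. These first 10 took 59.1%, 52.6% and 62.5% of counts with rapamycin and 63.6%, 63.6% and 55.5% with vehicle.

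**Figure D1:**
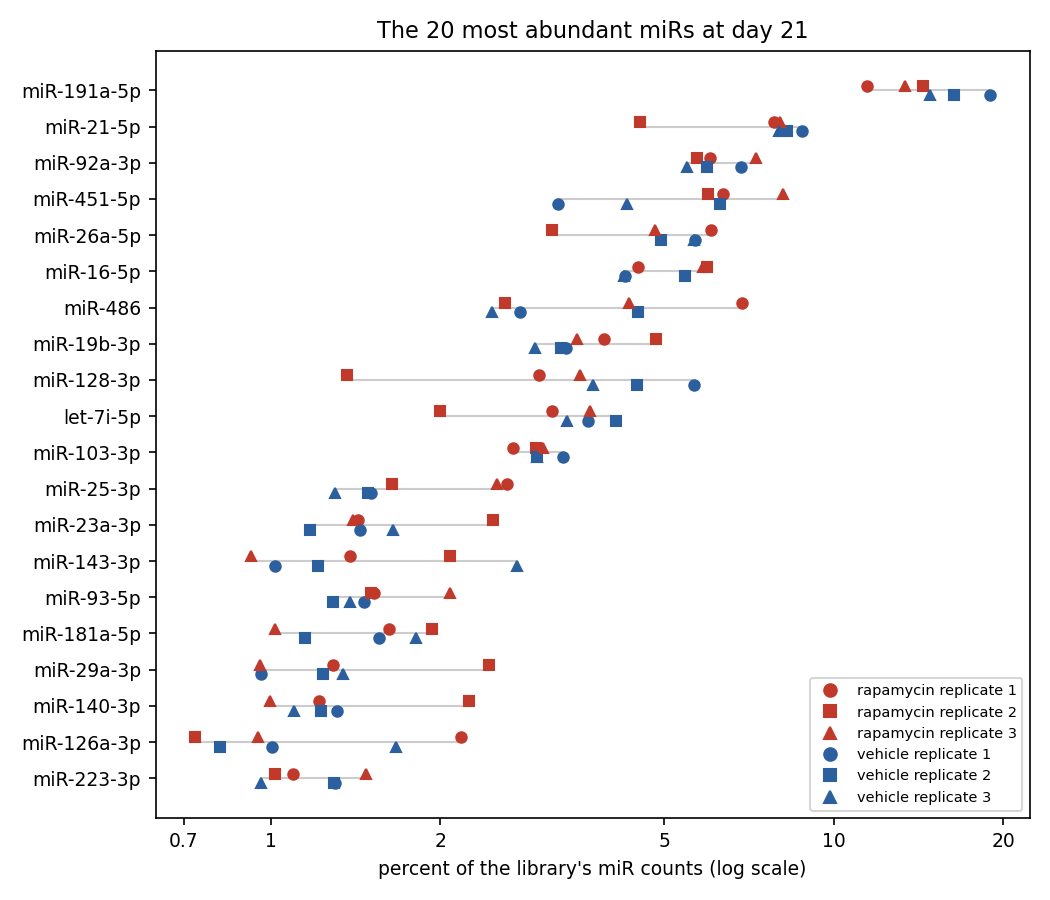
Percent of each library's miR counts, on a log axis, taken by the 20 miRs with the highest mean level at day 21, with rapamycin in red, vehicle in blue and 1 symbol per replicate. MiR-191a-5p leads every library at 11.5% to 18.9%, and rapamycin replicate 2 is the lowest of the 6 for miR-21-5p, miR-26a-5p, miR-128-3p and let-7i-5p.

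One DE miR, let-7c-5p, was found among the 92 miRs above the abundance cutoff (1.09% of those tested, 1 higher and 0 lower). Its level was 1281, 1181 and 12585 CPM with rapamycin and 1811, 1442 and 2350 CPM with vehicle, from counts of 21, 29 and 264 against 55, 39 and 61. The high group mean came from rapamycin replicate 3 alone, and the other rapamycin libraries lay below all 3 vehicle libraries. The log2 fold change was 1.43 (SE 0.41, edgeR quasi-likelihood test with Benjamini-Hochberg adjustment, adjusted p = 0.0499). This SE and p rest on a spread shared by all miRs, not on the scatter of let-7c-5p itself. Its SD was 6555 CPM with rapamycin and 457 CPM with vehicle. The abundance cutoff was the one giving most calls, and with no cutoff the adjusted p by edgeR was 0.198. Without rapamycin replicate 3 the log2 fold change was -0.67 (edgeR adjusted p = 0.612). Over 20 alternative settings it ran from -0.67 to 1.88, and let-7c-5p was called in 6 of them. Of these 20 settings, 1 repeats the main fit, and it is also 1 of the 6 with a call. Across all 365 miRs with a count in the fitted libraries, 15 had an unadjusted p under 0.05 (4.11%), 10 of them higher (2.74%) and 5 lower (1.37%) with rapamycin.

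Let-7 miRs restrain proliferation and are found in most differentiated tissues. The other let-7 miRs shared the pattern of let-7c-5p at most in part. In let-7f-5p, let-7g-5p and let-7i-5p, rapamycin replicates 1 and 2 also lay below all 3 vehicle values. Rapamycin replicate 3 lay within the vehicle range for these miRs, not far above it as for let-7c-5p. Let-7f-5p stood at 9331, 3584 and 14825 CPM with rapamycin and 11066, 17264 and 16332 CPM with vehicle (log2 fold change -0.69, SE 0.33, adjusted p = 0.652 by edgeR). Its highest rapamycin value lay among the vehicle values and the other rapamycin values lay below them. MiR-98-5p, a let-7 family member by its seed, was at 1647, 937 and 2383 CPM with rapamycin and 2832, 2551 and 2773 CPM with vehicle, with no overlap (log2 fold change -0.72, SE 0.48, adjusted p = 0.797). Let-7i-5p, the most abundant member, had a log2 fold change of -0.32, let-7g-5p of -0.70, let-7b-5p of -0.16 and let-7a-5p of 0.35, with adjusted p-values from 0.797 to 0.976 by edgeR. In all, 7 of the 9 family members in the table had a mean count of at least 10, 2 of the 7 had a log2 fold change above 0, and their median was -0.32. Summed over the family, the level was 45313, 25820 and 74794 CPM with rapamycin and 57274, 67726 and 55774 CPM with vehicle (log2 fold change -0.31, SE 0.26, adjusted p = 1 by edgeR over all families, lone miRs included). The sum was lowest in rapamycin replicate 2 and highest in rapamycin replicate 3.

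Counted from 1 at the 5′ end of let-7c-5p, let-7a-5p differs by G19A alone and let-7b-5p by A17G alone, while let-7f-5p differs by G12A and G19A. The study allowed 1 mismatch when it assigned reads to rat miRs, so reads could be split between these near-identical members, and their separate counts are uncertain. Let-7a-5p stood at 427, 489 and 906 CPM with rapamycin and 527, 555 and 347 CPM with vehicle, and so was also highest in rapamycin replicate 3, whereas let-7b-5p stood at 793, 163 and 715 CPM with rapamycin and 527, 850.3 and 462 CPM with vehicle.

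The precursors of let-7c lie at 2 places in the reference, one beside miR-99a, with miR-125b-2 within 50 kb, and one beside let-7b. MiR-125b-5p, a miR of the lin-4 family that is abundant in fibroblasts and muscle, was also highest in rapamycin replicate 3. It stood at 366, 652 and 3957 CPM with rapamycin and 1021, 887 and 770 CPM with vehicle. The other 2 rapamycin values lay below the 3 vehicle values, as for let-7c-5p. The log2 fold change was 0.89 (SE 0.51, adjusted p = 0.696), and -0.88 without rapamycin replicate 3. MiR-99a-5p, which targets mTOR, was instead highest in rapamycin replicate 2. Its values were 4879, 13195 and 1621 CPM with rapamycin and 4150, 1405 and 7588 CPM with vehicle (log2 fold change 0.59, SE 0.36, adjusted p = 0.696), and the log2 fold change was -0.44 without rapamycin replicate 2.

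MiR-128-3p, known chiefly from neurons and also present in blood cells, had the next smallest p among the miRs above the cutoff. Its level was 29822, 12625 and 40281 CPM with rapamycin and 59613, 47504 and 36052 CPM with vehicle. Rapamycin replicate 3 lay above vehicle replicate 3, so the groups overlapped. The log2 fold change was -0.79 (SE 0.28, adjusted p = 0.188 by edgeR). It stayed below 0 in all 20 alternative settings, from -1.34 to -0.53, and was called in 6 of them, including the setting scaled to the calibrator spike-ins. MiR-128-3p was the only member of the neuron list with a mean count of at least 10, out of 6 in the table, and 2 of the 6 had no count in any library.

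MiR-25-3p and miR-451-5p, both abundant in red cells, were among the miRs with an unadjusted p under 0.05 and had an adjusted p of 0.652 each by edgeR. For miR-25-3p the values were 26163, 15190 and 28602 CPM with rapamycin and 15941, 15786 and 12557 CPM with vehicle (log2 fold change 0.66, SE 0.30). Rapamycin replicate 2 lay within the vehicle range and the other 2 lay far above it. MiR-451-5p stood at 63181, 55427 and 92050 CPM with rapamycin and 34286, 66506 and 41368 CPM with vehicle (log2 fold change 0.57, SE 0.26). Vehicle replicate 2 lay above 2 of the rapamycin libraries. Both log2 fold changes were smaller when scaled to the calibrators, 0.17 for miR-25-3p and 0.16 for miR-451-5p.

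**Figure D2:**
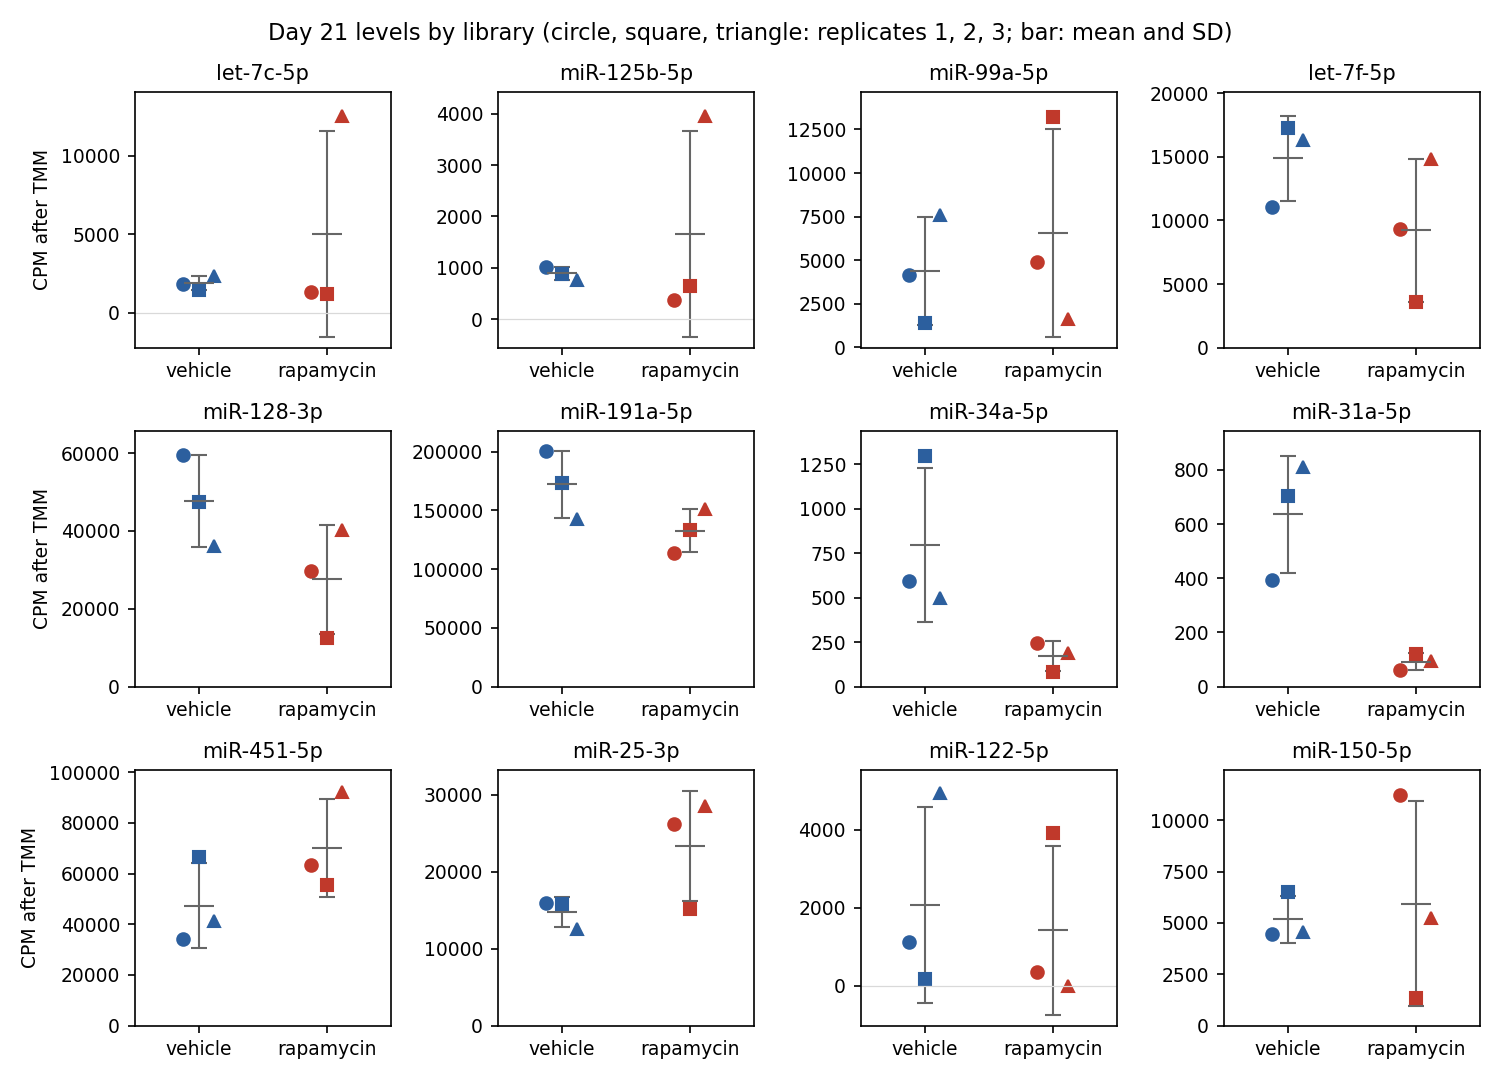
CPM after TMM scaling of 12 miRs in each day 21 library, with circle, square and triangle for replicates 1, 2 and 3, and the mean with its SD as bars. Rapamycin replicate 3 alone is high for let-7c-5p and miR-125b-5p, at 12585 and 3957 CPM, and miR-34a-5p and miR-31a-5p are lower in all 3 rapamycin libraries.

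Several miRs with small p-values rested on few counts and lay below the abundance cutoff. MiR-34a-5p, a target of p53 linked to cell cycle arrest, had 4, 2 and 4 counts with rapamycin and 18, 35 and 13 with vehicle. MiR-31a-5p had 1, 3 and 2 counts with rapamycin and 12, 19 and 21 with vehicle. Both were lower in all 3 rapamycin libraries. Their log2 fold changes were -2.22 (SE 0.79) and -2.69 (SE 0.95), with an adjusted p of 0.36 for each by edgeR over all 365 miRs. Both kept a value below 0 in all 19 alternative settings in which they were fitted, from -2.69 to -1.72 for miR-34a-5p and from -3.03 to -2.41 for miR-31a-5p. With the groups fully separated, leaving out 1 library could hardly turn the sign.

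The other 4 of the 10 miRs with the smallest p-values had counts in 1 or 2 rapamycin libraries. MiR-1949 had 4, 14 and 0 counts with rapamycin and 0, 0 and 1 with vehicle. MiR-298-5p had 3, 10 and 0 counts with rapamycin and none in the vehicle libraries. MiR-20a-3p, the minor arm of a miR-17/92 precursor, had 13, 4 and 0 counts with rapamycin and 0, 0 and 1 with vehicle. MiR-3585-5p had 10 counts, all in rapamycin replicate 2. For each of these 4 miRs, rapamycin replicate 3 had no count, as had at least 2 of the vehicle libraries, and no fold is given.

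Of the 105 miRs with a mean count of at least 10, the groups did not overlap for 10 (9.52%), with rapamycin higher for 4 (3.81%) and lower for 6 (5.71%). The 4 higher ones were miR-101a-3p, miR-484, miR-339-5p and miR-19b-3p. MiR-101a-3p, which targets the Polycomb methyltransferase Ezh2, stood at 9331, 10222 and 7150 CPM with rapamycin and 5303, 5065 and 6471 CPM with vehicle (log2 fold change 0.67, SE 0.35, edgeR adjusted p = 0.696). MiR-484 stood at 2805, 2566 and 3289 CPM with rapamycin and 955, 2403 and 1387 CPM with vehicle. The 6 lower ones were miR-34a-5p, miR-98-5p, miR-148a-3p, miR-425-5p, miR-181d-5p and miR-181c-3p. MiR-148a-3p, abundant in liver and B cells, stood at 1952, 2891 and 3051 CPM with rapamycin and 4051, 4251 and 5585 CPM with vehicle (log2 fold change -0.81, SE 0.40, edgeR adjusted p = 0.689). MiR-425-5p stood at 5672, 5131 and 7055 CPM with rapamycin and 9683, 9316 and 7588 CPM with vehicle (log2 fold change -0.57, SE 0.36, edgeR adjusted p = 0.696). Scaled to the calibrator counts, which moved the median log2 fold change of the 105 miRs from 0.01 to -0.39, the split was 0 higher and 12 lower.

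**Figure D3:**
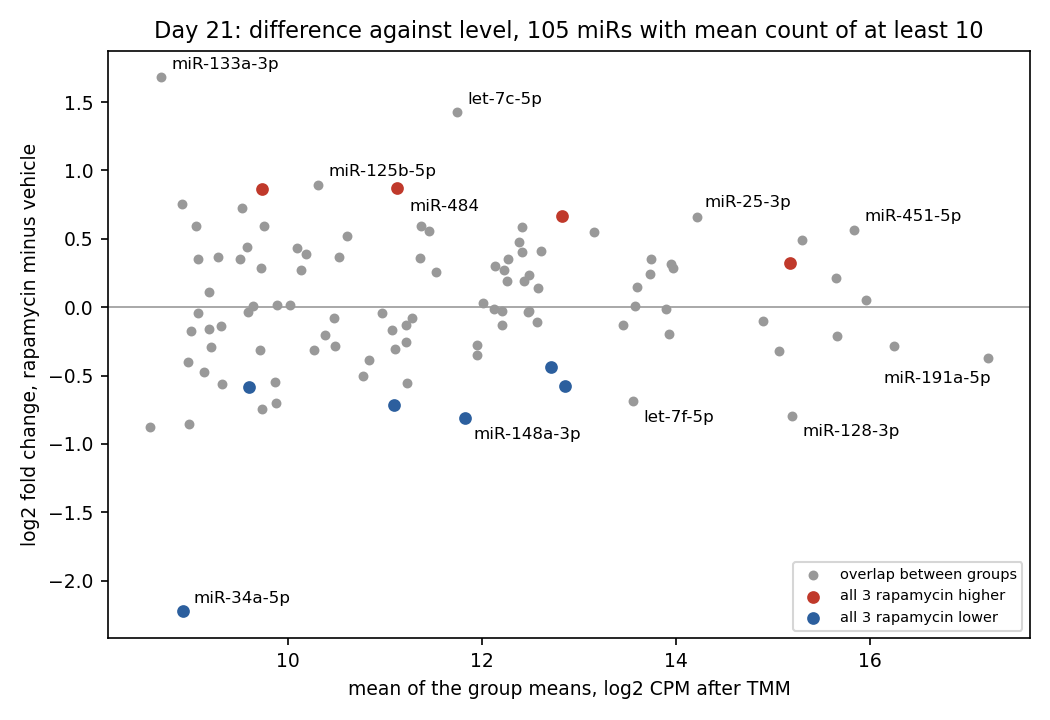
Log2 fold change at day 21, rapamycin minus vehicle, against the log2 of the mean level (CPM after TMM scaling) of the 105 miRs with a mean count of at least 10. Coloured points are the 4 miRs higher and the 6 lower in all 3 rapamycin libraries, and let-7c-5p, the single DE miR, is grey because its groups overlap.

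Counts were summed over miRs with the same seed. A miR alone in its seed, or without a sequence, counted as a family of its own. This gave 0 DE families of 303 (0.0%) by edgeR, with 10 at an unadjusted p under 0.05 (3.3%). These shares therefore cover single miRs as well as summed families. Of the seed families, 17 had at least 2 members with a mean count of 10. In the family of miR-92a, miR-25 and miR-363, all 3 measured members had a log2 fold change above 0, from 0.05 for miR-92a-3p to 0.66 for miR-25-3p, with a median of 0.29 that was -0.29 when scaled to the calibrators. Their family sum had a log2 fold change of 0.19 (SE 0.25). The miR-19 family, oncomiRs of the miR-17/92 cluster, had both members above 0 and a summed level of 44947, 53228 and 46478 CPM with rapamycin against 39061, 41922 and 33703 CPM with vehicle. All 3 rapamycin sums lay above the vehicle sums, with a log2 fold change of 0.33 (SE 0.27, edgeR adjusted p = 1). Among the 17 families, the sums also separated for the miR-101 family and for no other. Its lowest rapamycin sum was 11727 CPM and its highest vehicle sum 11594 CPM. The miR-29 family, which represses collagen genes, summed to 16527, 26512 and 12871 CPM with rapamycin and 12252, 15157 and 16409 CPM with vehicle, with the groups overlapping (log2 fold change 0.35, SE 0.30, edgeR adjusted p = 1). In the miR-181 family, with roles in lymphocyte development, 1 of 4 members was above 0, and the family sum had a log2 fold change of -0.12 (SE 0.28).

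**Figure D4:**
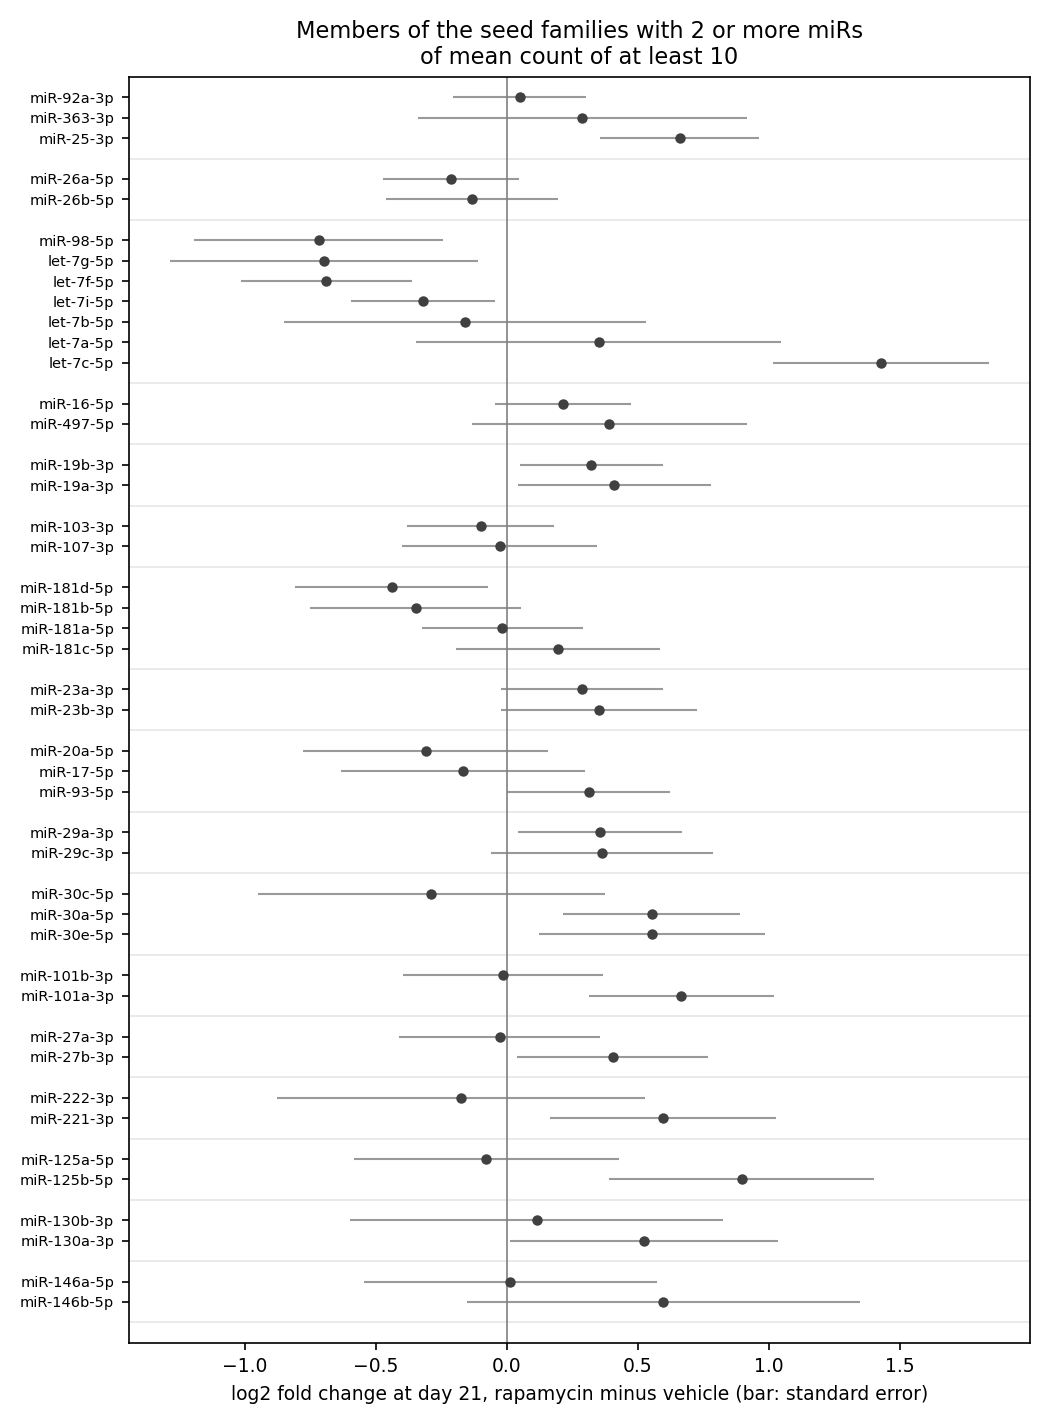
Log2 fold change at day 21, rapamycin minus vehicle, with its standard error, for each member of the 17 seed families with at least 2 miRs of mean count of at least 10, grouped by family and ordered within it. The let-7 family spans from -0.72 for miR-98-5p to 1.43 for let-7c-5p.

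In the reference, 17 clusters of precursors lying within 10 kb of each other on one strand held at least 2 miRs with a mean count of at least 10. A miR with precursors at several places was counted in each of its clusters. In the miR-106b/25/93 cluster, within the gene of the replication factor Mcm7, all 3 miRs had a log2 fold change above 0, with a median of 0.66, which was 0.17 scaled to the calibrators and 0.44 without rapamycin replicate 3. Its summed level was 42202, 30340 and 53628 CPM with rapamycin and 32178, 30277 and 26385 CPM with vehicle. Rapamycin replicate 2 lay between the vehicle values and the other rapamycin libraries above them. In the cluster of miR-144 and miR-451, transcribed in the erythroid lineage, all 3 miRs were above 0 with a median of 0.28, which was -0.08 scaled to the calibrators and 0.04 without rapamycin replicate 3.

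The miR-191/425 cluster, within the gene Dalrd3, was the locus of the most abundant miR, and miR-191a-5p and miR-425-5p had log2 fold changes of -0.37 and -0.57. Among precursors with both arms measured, the arms differed most in miR-425, since miR-425-3p had a log2 fold change of 0.37. The log2 ratio of its 5p to its 3p counts was 2.22, 1.73 and 1.65 with rapamycin and 2.22, 3.07 and 3.45 with vehicle. Rapamycin replicate 1 lay just below vehicle replicate 1, at 2.217 against 2.222, so the groups separated by a narrow margin. The pair was picked for its difference, so this separation adds nothing to it. The 5p to 3p ratio also separated for miR-181c, at 2.85, 3.04 and 3.27 with rapamycin and 2.46, 2.22 and 2.09 with vehicle. The miR-98/let-7f-2 cluster, within the ubiquitin ligase gene Huwe1, had both members below 0, at -0.72 for miR-98-5p and -0.69 for let-7f-5p. Let-7f-5p also has a precursor beside let-7a and let-7d, so its counts cannot be assigned to this locus. In that other cluster let-7a-5p had a log2 fold change of 0.35. The 5 measured miRs of the miR-17/92 cluster had a median of 0.05, from -0.31 for miR-20a-5p to 0.41 for miR-19a-3p. In the miR-23b/27b/24-1 cluster all 3 were above 0 with a median of 0.35, but it was -0.48 without rapamycin replicate 2.

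Lists of miRs known from a blood cell or tissue were described by their members with a mean count of at least 10. In serum vesicles, fewer vesicles from a source and less miR per vesicle cannot be told apart. None of the lists held a DE miR by edgeR, and the median of all 105 miRs was 0.01. An unadjusted p under 0.05 was found for 4 of the 40 measured list members (miR-451-5p, miR-128-3p, miR-148a-3p and miR-133a-3p), a share of 10%, against 8 of all 105 miRs (7.62%). All 5 measured members of the erythrocyte list had a log2 fold change above 0, with a median of 0.28 (-0.08 scaled to the calibrators, 0.61 without rapamycin replicate 2 and 0.04 without rapamycin replicate 3). The summed level of the 6 listed miRs was 183751, 140420 and 219995 CPM with rapamycin and 113132, 182549 and 112125 CPM with vehicle. MiR-486 stood at 68243, 24150 and 49195 CPM with rapamycin and 29345, 47615 and 23804 CPM with vehicle (log2 fold change 0.49, or -0.05 scaled to the calibrators, SE 0.27, edgeR adjusted p = 0.696). The log2 ratio of miR-23a-3p to miR-451-5p, used as a sign of haemolysis, was -2.15, -1.27 and -2.54 with rapamycin and -1.17, -2.42 and -1.38 with vehicle (exact permutation test p = 0.6), and its part in these values was not tested.

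Liver and muscle miRs were uneven between libraries of the same group. MiR-122-5p, which hepatocytes make in large amounts, had 6, 96 and 0 counts with rapamycin and 34, 5 and 128 with vehicle. The liver miR-192-5p had 0, 19 and 0 counts with rapamycin and 15, 3 and 24 with vehicle. Both were high in rapamycin replicate 2 and vehicle replicate 3 and low or absent in rapamycin replicates 1 and 3. The 3 measured members of the liver list, of 8 in the table, all had a log2 fold change below 0, with a median of -0.81, and -0.43 without rapamycin replicate 3. That of miR-122-5p was -0.50, and 1.05 without vehicle replicate 3, whereas without rapamycin replicate 2 the remaining rapamycin libraries held 6 counts of miR-122-5p and none of miR-192-5p. The striated muscle miR-133a-3p had 0, 45 and 1 counts with rapamycin and 2, 1 and 13 with vehicle, and so was high in the same 2 libraries. Its log2 fold change was 1.68 (SE 0.83, edgeR adjusted p = 1 over all miRs), and it turned below 0 without rapamycin replicate 2, where the remaining rapamycin libraries held 1 count. The other muscle markers were near absent, since 7 of the 9 in the table had no count in any of the 6 libraries.

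Lists of miRs tied to mTOR, autophagy and collagen overlapped between the groups in their summed level. Of the miR-99/100 list, which targets mTOR, miR-99a-5p and miR-100-5p had log2 fold changes of 0.59 and -0.55. MiR-100-5p stood at 1219.7, 692 and 381 CPM with rapamycin and 626, 776 and 1926 CPM with vehicle, with full overlap of the groups. The miR-30 list, which targets the autophagy gene Beclin 1, summed to 16100, 39544 and 13967 CPM with rapamycin and 13997, 16303 and 21262 CPM with vehicle. Its 6 measured members had a median of 0.46, and -0.31 without rapamycin replicate 2, the library with the highest sum. MiR-30a-5p stood at 8050, 18082 and 6388 CPM with rapamycin and 5928, 5730 and 10554 CPM with vehicle (log2 fold change 0.55, SE 0.34, edgeR adjusted p = 0.696). The fibroblast and collagen list, with miR-21-5p at -0.28, miR-29a-3p at 0.35 and miR-29c-3p at 0.36, had a median of 0.35, and -0.09 without rapamycin replicate 2.

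The lymphocyte list had 2 of 7 members above 0 and a median of -0.25. Of the 7, 2 (miR-181d-5p and miR-181c-3p) were lower in all 3 rapamycin libraries, as were 6 of all 105 miRs (5.71%). Both come from the miR-181c/181d cluster, in which miR-181c-5p had a log2 fold change of 0.20. The summed level of the list ran over 35991 to 44764 CPM in the rapamycin libraries and 39371 to 43804 CPM in the vehicle libraries. The myeloid list had 3 of 5 above 0 and a median of 0.01, or -0.45 scaled to the calibrators. MiR-223-3p, made by neutrophils and platelets, stood at 10916, 9407 and 16732 CPM with rapamycin and 13734, 13715 and 9283 CPM with vehicle. MiR-142-3p, found in all leukocytes, stood at 6952, 1955 and 8724 CPM with rapamycin and 5961, 7505 and 5508 CPM with vehicle, lowest in rapamycin replicate 2. The vascular list had 2 of 6 above 0 and a median of -0.04, and the smooth muscle miR-143-3p was highest in rapamycin replicate 2 and vehicle replicate 3, at 19263 and 26385 CPM. The epithelial list had 1 measured member, miR-203a-3p, with a log2 fold change of 0.27.

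**Figure D5:**
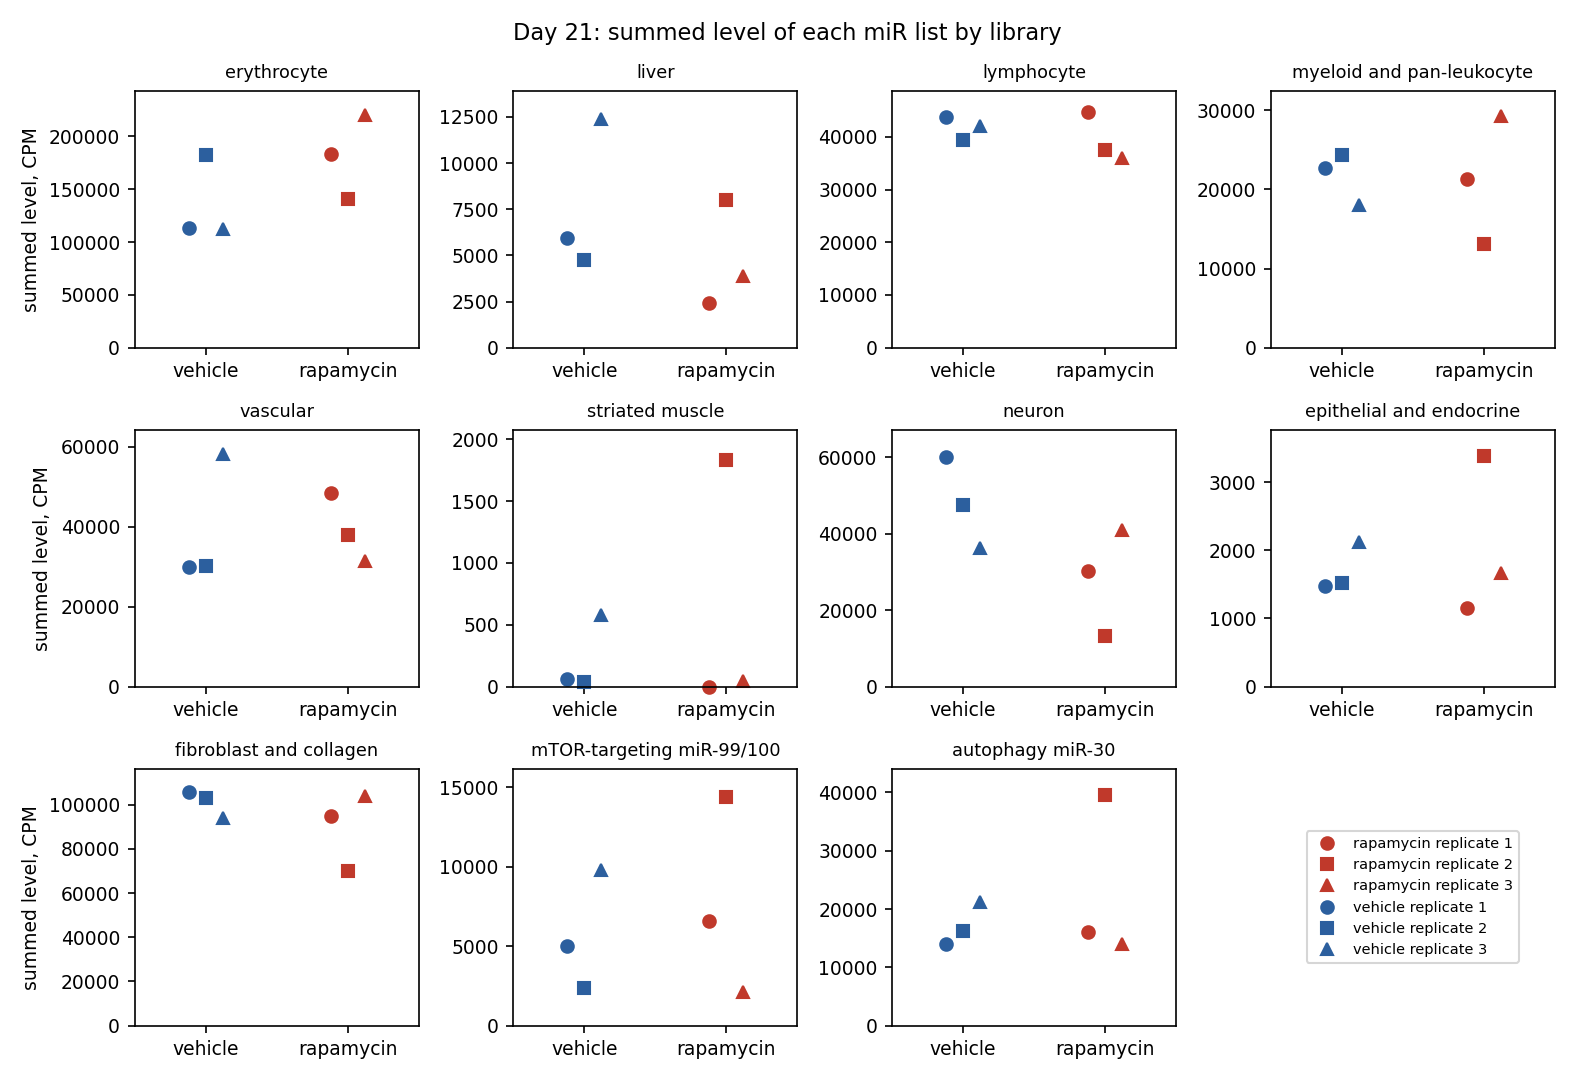
Summed level, in CPM after TMM scaling, of all members of each marker or pathway list in the 6 day 21 libraries, with rapamycin in red and vehicle in blue. The striated muscle, miR-99/100 and miR-30 lists are highest in rapamycin replicate 2, and the liver list is highest in vehicle replicate 3.

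With rapamycin replicate 2 left out, 7 DE miRs were found among 181 tested. That library was seen to stand apart in these same values, and 2 rapamycin libraries remained. The calls are therefore given as a description. For miR-122-5p, vehicle replicate 2 held 5 counts, against 6 and 0 in the remaining rapamycin libraries. Let-7c-5p, miR-25-3p and miR-486 were higher, with log2 fold changes of 1.77, 0.82 and 0.74. MiR-122-5p, miR-22-3p and miR-378a-3p were lower, with log2 fold changes of -3.61, -1.28 and -1.44, and so was miR-192-5p, which had no count in the remaining rapamycin libraries and is given no fold. With rapamycin replicate 3 left out, let-7f-5p (-1.23) and miR-128-3p (-1.20) were DE among 149 tested.

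The log2 fold change showed little relation to sequence or level across miRs. Its Pearson correlation with GC content was 0.10 and with length 0.03 over the 93 miRs with a sequence, and with mean log2 CPM 0.04 over 105. These values are across miRs of the same 6 libraries and are given as a description.

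The change with rapamycin was also set against that at day 7, for which the fit held 4 libraries. The test of the difference between days gave 1 DE miR of 365 (0.274%), miR-150-5p, a lymphocyte miR, with 13 at an unadjusted p under 0.05 (3.56%). At day 21 miR-150-5p stood at 11221, 1344 and 5244 CPM with rapamycin and 4479, 6506 and 4545 CPM with vehicle. The rapamycin libraries held both the highest and the lowest value, and the log2 fold change was 0.19 (SE 0.37, edgeR adjusted p = 0.871). It was -0.66 without rapamycin replicate 1 and 0.62 without rapamycin replicate 2. Let-7c-5p was not shown to differ between the days, with an adjusted p of 1.00 by edgeR for the difference.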

How the data were processed

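The authors deposited raw counts of reads per mature rat miR in 1 table, with 10 spike-in rows that were left out of all miR totals. Per the study's methods, adapters were trimmed, reads of at least 17 nt were mapped to mRatBN7.2 and assigned to miRBase 22.1 with at most 1 mismatch. The counts carry no normalization, and the day 21 totals ran from 16327 to 32126.

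From these counts, edgeR 4.0.16 (quasi-likelihood, TMM scaling, two-sided) was fitted with a mean per treatment and day to the 10 libraries that the study lists, 6 of them from day 21. The abundance cutoff was the one that gave most calls after Benjamini-Hochberg adjustment. Adjusted p-values over the miRs above it are therefore optimistic. DE means an adjusted p under 0.05. CPM are counts scaled to a fixed library total after TMM scaling. All miRs shared 1 trended spread, so an SE or p-value does not reflect the scatter of that miR between animals. For miRs with uneven replicates it can be too small. Library measures were compared by exact permutation tests. Sequences, seeds and neighbouring precursors came from RefSeq (GRCr8), 403 of 426 miRs being placed, and coordinates are not given because the builds differ. The fit was tested on simulated data.

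Named miRs were DE miRs, the 10 smallest p-values, the 20 most abundant, list members, the extremes of families and clusters, the arm pair differing most, and miRs the study tabulates. MiR-484, miR-339-5p, miR-22-3p, miR-378a-3p, miR-363 and let-7g-5p fall outside this rule and were chosen after their values were seen. The members and lists were chosen with earlier results of these data known. Alternatives were other library sets, scalings, filters, DESeq2 1.42.0, limma 3.58.1 (voom), a replicate block, and leaving out each library.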

Additional observations from a re-analysis of the deposited data

Results flagged for a closer look

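MiR-150-5p was the only result flagged. Its rapamycin minus vehicle log2 fold change differed between the days by 2.28 (edgeR interaction test, adjusted p = 0.0406), from -2.09 at day 7 to 0.19 at day 21. The day 21 value was -0.66 without rapamycin replicate 1 at day 21, where no miR differed between the days by edgeR (9 at an unadjusted p under 0.05). At day 7 the libraries in the fit stood at 3192 and 1976 CPM with rapamycin and 8861 and 13195 CPM with vehicle, and the 2 unlisted libraries had 111 counts with rapamycin and 172 with vehicle. Day 7 holds 2 libraries per treatment in this fit. No miR was tested for a sample far from the others, since each group holds 3.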

How the results depend on the processing

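For DE miRs at day 21 (1 in the result reported), edgeR gave 0 with all 12 libraries (12 at an unadjusted p under 0.05), 0 with the day 21 libraries alone (12), 0 with no abundance cutoff (15), 0 with filterByExpr (9) and 0 with at least 10 counts in every library (5). DESeq2 gave 0 (9) and limma-voom 0 (24), while scaling by total counts gave 2, let-7c-5p and miR-128-3p. Scaling by DESeq2 size factors, calibrator counts or sequenced reads gave 1 each, which was miR-128-3p and not let-7c-5p. Leaving out each library in turn gave 0 to 7 DE miRs, with 7 without rapamycin replicate 2, 2 without rapamycin replicate 3 or vehicle replicate 3, and 0 without vehicle replicate 1 or 2 (11 at an unadjusted p under 0.05 in each). For seed families (0 reported), size factors, total counts, calibrator counts and sequenced reads each gave 1, and leaving out each library gave 0 to 5. For the difference between days (1 reported), size factors gave 3 and total counts 2, and it was 0 with calibrator counts (10 at an unadjusted p under 0.05), sequenced reads (9), filterByExpr (3), at least 10 counts in every library (3), DESeq2 (6) and limma-voom (16). Leaving out each library gave 0 to 10, with 0 without rapamycin replicate 1, 10 without rapamycin replicate 2, and 3 without vehicle replicate 1 or 2. Non-overlapping miRs were 16 of 228 with a mean count of at least 1, and 15 to 25 with a library left out, where fewer values must separate. Over the same fits let-7c-5p ran from -0.67 to 1.88 on the log2 scale, and its sign turned only without rapamycin replicate 3. The log2 difference in the share of the 10 most abundant miRs ran from -0.14 to 4.66e-05, the last without rapamycin replicate 2. The causes were not tested, other than where fewer miRs or libraries entered. Of the 81 named miRs, 33 had no change of sign under any setting in which they were fitted. With a replicate block at day 21 there were 0 DE miRs (7 at an unadjusted p under 0.05), 1 seed family and 0 miRs differing between days (8). The numbers do not mark a pairing, since the deviations of same-numbered libraries correlated at -0.16, -0.58 and -0.66.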
